A study of Mus musculus with 6 samples.

Results

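The genes described here are 58 genes of DNA replication and S phase, of 19936 genes measured on Affymetrix arrays in mouse fibroblasts. They were taken from a list of origin recognition, licensing, helicase, polymerase, clamp, nucleotide supply and S-phase regulator genes. Each is represented by the probe set (the set of array probes for a transcript) that names no other gene, and by the brightest such set where a gene has more than 1. All 58 members were measured, and 4 of them (E2f3, Pcna, Rpa3 and Tk1) have 2 such probe sets.

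The control group held 3 RNA samples of untransfected Tet-off cells, a stable line derived from mouse embryonic fibroblasts (MEFs) in which a tetracycline-controlled transactivator can drive transgenes. The other group held 3 RNA samples of Tet-off HA-Fbxl10 cells, which are the same line after transfection with a plasmid for HA-tagged Fbxl10 cDNA and a Hygromycin resistance plasmid, with clones selected for HA-Fbxl10 expression. The labels state no culture times, no promoter for the cDNA and no number of clones behind the 3 samples. The RNA samples are called independent, but whether each had its own culture or clone is not stated, so the p-values reflect sample-to-sample spread that may be technical. With no empty-vector group, transfection, drug selection and clone choice cannot be told apart from added Fbxl10. The question is which transcripts have another level in cells with added Fbxl10 than in the untransfected line.

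Fbxl10 is the older name of Kdm2b, a histone demethylase with a CpG-binding domain that is also a subunit of a Polycomb complex. The log2 level of Kdm2b was 7.38, 7.45 and 7.28 on the control arrays and 9.77, 9.75 and 9.58 on the HA-Fbxl10 arrays, a rise of 2.33 ± 0.076 (SE, limma adjusted p = 3.31e-07), the direction that the labels state. Of 12 fibroblast markers, 9 had a mean level above the median of all genes (5.36 on the log2 scale), while Thy1, Lum and Dcn lay below it. The summed log2 level of these 12 markers was 111.6 to 112.0 in control and 109.4 to 110.8 in HA-Fbxl10 cells, and 3 of them (Col3a1, Pdgfra and S100a4) fell. The marker lists of macrophages, endothelium, epithelium and skeletal muscle had summed log2 levels that overlapped between the groups. Single markers among them changed all the same. The epithelial keratin gene Krt19 rose by 0.71 ± 0.084 (SE, limma adjusted p = 0.000385), about as much as the largest rises among the members, from 9.07 ± 0.16 to 9.79 ± 0.02 (SD, n = 3 each). The endothelial receptor gene Kdr, with a mean log2 level of only 3.95, rose by 0.51 ± 0.087 (SE, limma adjusted p = 0.00277), and the macrophage gene Cd14 fell by 0.45 ± 0.13 (SE, limma adjusted p = 0.0357). The log2 levels of 6 fat cell markers summed to 25.5 to 26.2 in control and 27.5 to 27.8 in HA-Fbxl10 cells. Of these, Lpl and Fabp4 rose, none of the 6 had a mean level above the median of all genes, and Adipoq lay below the lower quartile of all genes (3.75). The part of these markers in the results below was not tested. Whether more cells in S phase or more RNA per cell lies behind a higher level cannot be told apart in bulk RNA.

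As background, replication starts where the origin recognition complex (ORC) binds DNA. In G1, Cdc6 and Cdt1 load the MCM helicase there, which is called licensing, and geminin (Gmnn) blocks Cdt1 afterwards. At the start of S phase, cyclin-dependent kinase and the Cdc7-Dbf4 kinase turn the helicase on together with Cdc45 and the GINS complex. Primase with polymerase alpha then lays down primers, the clamp loader RFC places the sliding clamp PCNA, and polymerases epsilon and delta extend the strands. Many of these genes are transcribed in late G1 under E2F factors, and they are used as markers of proliferating cells, which fibroblasts in culture are.

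Of the 58 members, 28 rose, 4 fell and 26 did not pass the test (limma, adjusted p under 0.05 over all genes). Over all genes, 10.5% were called higher and 10.6% lower. Every member had a mean level above the median of all genes, and among such genes 37.1% were called, 19.2% higher and 17.8% lower. The median log2 fold change of the members was 0.20, against -0.00427 for all genes and 0.00440 for genes above the median level. The changes were small, with rises of 0.21 to 0.72 and falls of 0.26 to 0.37 on the log2 scale, and no member changed by as much as 2-fold. The arrays of the groups did not overlap for 33 members that were higher and 7 that were lower in HA-Fbxl10 cells. Such separation was found for 17.9% (higher) and 18.1% (lower) of all genes, and for 30% and 28.0% of genes above the median level.

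By step, the members that rose were 4 of 6 ORC genes, 2 of 3 licensing genes, 3 of 6 MCM genes, 2 of 7 genes of helicase activation and MCM relatives, 3 of 5 genes of polymerases delta and epsilon, 5 of 6 clamp and clamp loader genes, 2 of 4 nucleotide supply genes, 5 of 9 S-phase regulators and 2 of 3 chromatin genes. None of the 4 genes of primase and polymerase alpha, the 3 of the single-strand binding protein RPA or the 2 of Okazaki fragment joining rose. The differences between steps were not tested.

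**Figure D1:**
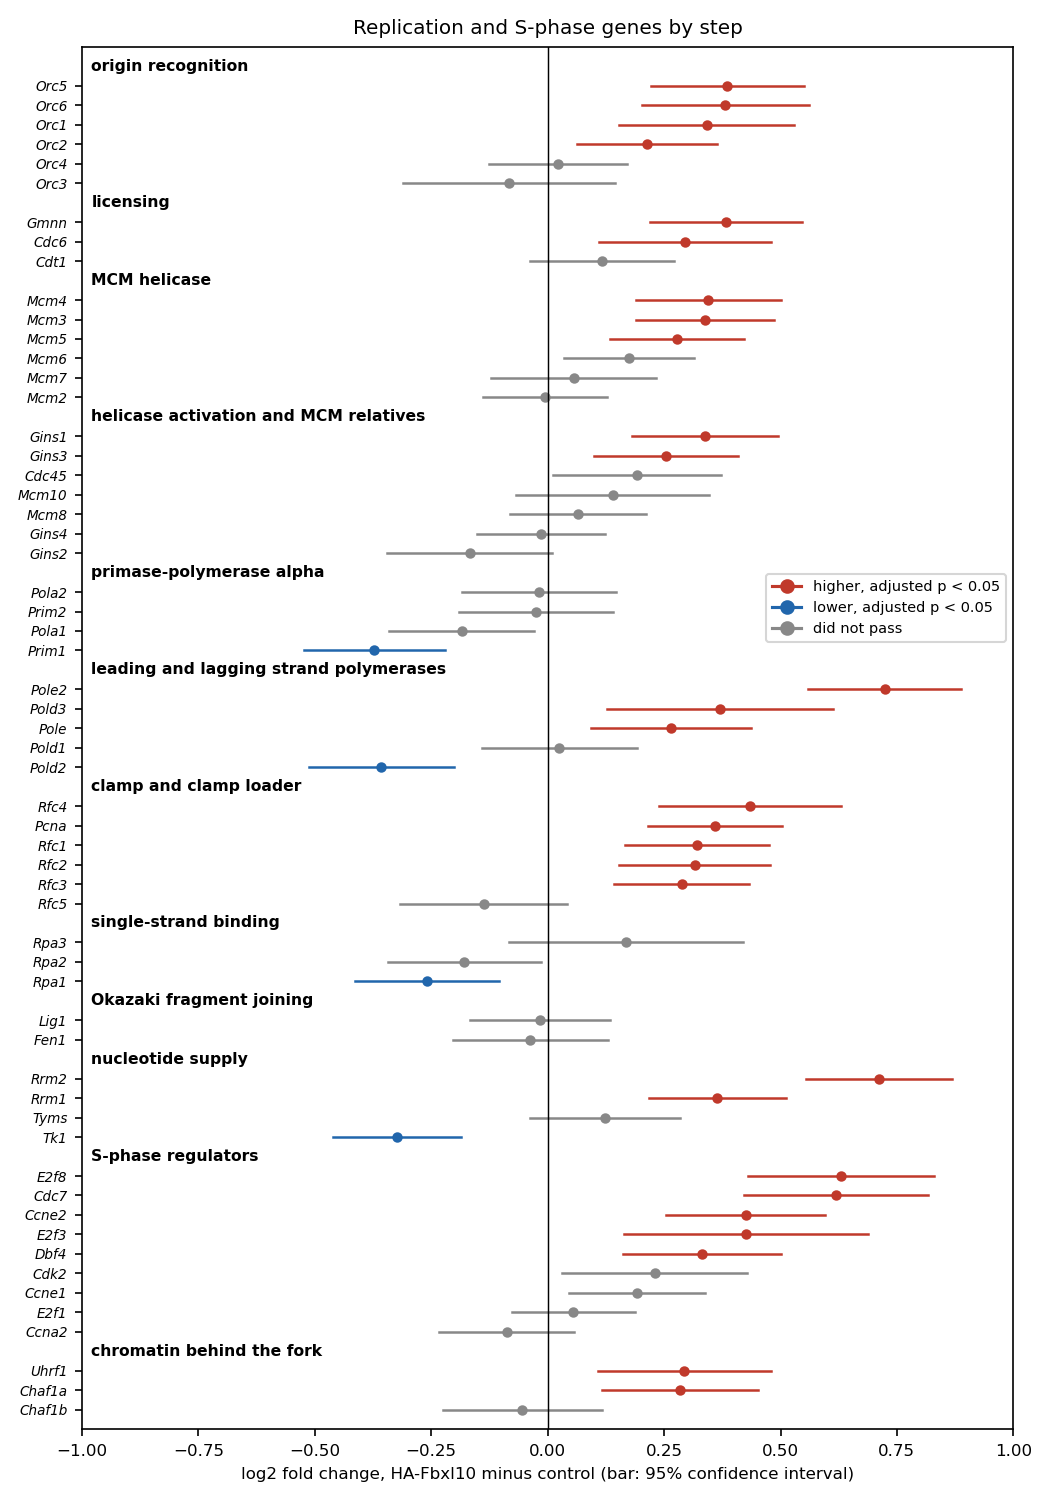
Log2 fold change (HA-Fbxl10 minus control, horizontal axis) of all 58 members with 95% confidence intervals from limma, grouped by step; colours mark genes called higher, called lower or not called at an adjusted p of 0.05. Pole2 and Rrm2 lie farthest to the right, and the 4 falls (Prim1, Pold2, Tk1 and Rpa1) lie in 4 different steps.

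The promoters of some of these genes are shown so that the letters behind the motif counts can be seen. RefSeq sequences of GRCm38.p6 matched 48 of the 58 members, at the most upstream start that the promoter sequences list for a gene. The windows are the 250 bases before that start, written 5′ to 3′. Such a start can lie inside the gene's span used for chromosome positions. Among others, the windows of Orc1, Rfc1, E2f1, E2f8 and Orc4 lie within that span. Those of Mcm5 and Pole2 reach into it, and all of them were counted like the rest. E2F-type sites were searched as TTTCCCGC, TTTCGCGC, TTTGCCGC and TTTGGCGC, and the CCAAT box, the element bound by NF-Y, as CCAAT, all on both strands; matches are in capitals, and E2F-type matches on opposite strands can overlap. The 6 below are the largest 2 rises, the largest fall, the 2 risen members with the most E2F-type and then the most CCAAT matches, and Mcm6, which had the most E2F-type matches of those not called.
Pole2 (chr12:69228191-69228440, - strand): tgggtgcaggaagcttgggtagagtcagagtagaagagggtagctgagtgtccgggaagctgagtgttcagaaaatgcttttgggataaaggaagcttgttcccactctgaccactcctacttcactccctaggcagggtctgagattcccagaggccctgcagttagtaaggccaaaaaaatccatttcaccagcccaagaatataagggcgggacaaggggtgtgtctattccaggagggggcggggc
Rrm2 (chr12:24708004-24708253, + strand): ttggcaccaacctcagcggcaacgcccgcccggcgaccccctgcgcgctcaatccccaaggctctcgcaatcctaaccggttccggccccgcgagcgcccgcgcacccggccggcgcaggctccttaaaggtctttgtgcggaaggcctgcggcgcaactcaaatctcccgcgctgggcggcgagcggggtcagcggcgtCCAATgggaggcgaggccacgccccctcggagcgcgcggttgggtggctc
Prim1 (chr10:128014965-128015214, + strand): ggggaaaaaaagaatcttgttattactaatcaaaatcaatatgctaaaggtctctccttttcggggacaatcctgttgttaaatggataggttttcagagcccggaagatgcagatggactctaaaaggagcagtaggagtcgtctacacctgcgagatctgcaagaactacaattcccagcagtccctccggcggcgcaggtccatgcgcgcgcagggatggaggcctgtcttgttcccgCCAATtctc
Mcm5 (chr8:75109259-75109508, + strand): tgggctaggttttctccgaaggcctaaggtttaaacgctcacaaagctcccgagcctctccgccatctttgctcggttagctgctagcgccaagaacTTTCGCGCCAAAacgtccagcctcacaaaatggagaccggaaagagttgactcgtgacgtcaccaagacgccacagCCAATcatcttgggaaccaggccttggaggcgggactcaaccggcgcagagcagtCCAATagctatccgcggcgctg
E2f3 (chr13:29986064-29986313, - strand): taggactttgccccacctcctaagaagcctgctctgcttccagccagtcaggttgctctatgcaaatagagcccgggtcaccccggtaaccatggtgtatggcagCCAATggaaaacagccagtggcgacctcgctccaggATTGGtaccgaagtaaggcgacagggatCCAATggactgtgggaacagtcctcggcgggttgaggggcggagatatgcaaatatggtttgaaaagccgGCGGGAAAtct
Mcm6 (chr1:128359706-128359955, - strand): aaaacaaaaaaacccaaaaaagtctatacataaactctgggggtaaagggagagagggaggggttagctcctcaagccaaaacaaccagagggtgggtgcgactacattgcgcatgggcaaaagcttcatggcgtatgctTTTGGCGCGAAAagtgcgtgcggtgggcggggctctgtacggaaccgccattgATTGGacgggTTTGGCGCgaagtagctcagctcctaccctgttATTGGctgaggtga
At least 1 E2F-type match lay in 11 of 48 members' windows (22.9%), against 1.92% of 27025 promoters of the same length, 2.57% of those of genes tested and 3.91% of those of genes above the median level. Mcm5 holds 2 overlapping matches and Mcm6 holds 3, of which 2 overlap. Among matched members, 6 of 22 that rose, 0 of 4 that fell and 5 of 22 not called had such a match. A CCAAT box lay in 28 of 48 windows (58.3%), against 35.6% for genes tested and 37.2% for genes above the median level. By group, 14 of 22 risen, 3 of 4 fallen and 11 of 22 uncalled members had a CCAAT box. The number of CpG dinucleotides, to which the Kdm2b protein can bind, had a median of 19 in the windows of risen members and 19.5 in those not called, and 17 for genes above the median level. Pole2 and Rrm2, with the largest rises, had 3 and 34 CpGs and no E2F-type match. No match says only that these letters are not in the window.

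In origin recognition, 4 of the 6 subunits rose. Orc6, the smallest and least related subunit, had log2 levels of 9.65, 9.42 and 9.64 on the control arrays and 10.01, 9.92 and 9.93 on the HA-Fbxl10 arrays, a rise of 0.38 ± 0.080 (SE, limma adjusted p = 0.00783). Orc5, an ATPase-like subunit of the ring, had 7.65, 7.49 and 7.53 on the control arrays and 7.87, 8.03 and 7.93 on the HA-Fbxl10 arrays, a rise of 0.39 ± 0.073 (SE, limma adjusted p = 0.00465). For both genes all 3 HA-Fbxl10 arrays lay above all control arrays, and control replicate 2 was the lowest array. Orc1, the subunit whose level varies over the cell cycle, had 6.60, 6.44 and 6.75 on the control arrays and 6.95, 6.93 and 6.93 on the HA-Fbxl10 arrays, a rise of 0.34 ± 0.084 (SE, limma adjusted p = 0.0169), with close HA-Fbxl10 values and scattered control values. Orc2 had the smallest rise called, 0.21 ± 0.067 (SE, limma adjusted p = 0.0492). Orc4 differed by 0.022 (95% confidence interval -0.13 to 0.17) and Orc3 by -0.084 (95% confidence interval -0.31 to 0.14), neither passing the test. Some calls ended when 1 array was left out. The adjusted p of Orc1 rose to 0.0526 to 0.0564 when control replicate 1, HA-Fbxl10 replicate 1 or HA-Fbxl10 replicate 3 was left out. That of Orc2 rose to 0.0670 to 0.147 when any array but control replicate 3 was left out.

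Of the licensing factors, the inhibitor rose together with 1 of the loaders. Gmnn had log2 levels of 6.80, 6.79 and 6.80 on the control arrays and 7.08, 7.16 and 7.30 on the HA-Fbxl10 arrays, a rise of 0.38 ± 0.072 (SE, limma adjusted p = 0.00470). The control arrays agreed closely, and the HA-Fbxl10 arrays were all higher. Cdc6, the ATPase that helps to load MCM, had 7.87, 8.05 and 7.96 on the control arrays and 8.31, 8.12 and 8.34 on the HA-Fbxl10 arrays, a rise of 0.29 ± 0.082 (SE, limma adjusted p = 0.0308); the gap between the groups was small, and with replicate 1 or 3 of a group left out its adjusted p was 0.0641 to 0.114. Cdt1, the other loader and the target of geminin, differed by 0.12 (95% confidence interval -0.038 to 0.27), with an overlap between the groups.

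The 6 subunits of the MCM ring, which work as 1 complex, had 3 members that rose and 3 that did not pass the test. Mcm4 had log2 levels of 9.47, 9.36 and 9.51 on the control arrays and 9.77, 9.86 and 9.73 on the HA-Fbxl10 arrays, a rise of 0.34 ± 0.069 (SE, limma adjusted p = 0.00638). Mcm3 had 9.66, 9.57 and 9.70 on the control arrays and 9.94, 10.03 and 9.97 on the HA-Fbxl10 arrays, a rise of 0.34 ± 0.066 (SE, limma adjusted p = 0.00543). Mcm5, whose promoter with overlapping E2F-type matches is shown above, had 10.22, 10.27 and 10.17 on the control arrays and 10.51, 10.55 and 10.44 on the HA-Fbxl10 arrays, a rise of 0.28 ± 0.064 (SE, limma adjusted p = 0.0128). The groups did not overlap for these 3 genes. They also did not overlap for Mcm6, but its difference of 0.17 (95% confidence interval 0.034 to 0.31) did not pass the test (adjusted p = 0.0809). Mcm2 and Mcm7, the subunits at -0.0058 (95% confidence interval -0.14 to 0.13) and 0.055 (95% confidence interval -0.12 to 0.23), had overlapping arrays. Whether the subunits' changes differ from each other was not tested.

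Among genes that turn the helicase on, 2 of the 4 GINS subunits rose. Gins1 had log2 levels of 8.87, 8.94 and 8.93 on the control arrays and 9.16, 9.24 and 9.35 on the HA-Fbxl10 arrays, a rise of 0.34 ± 0.070 (SE, limma adjusted p = 0.00726), and Gins3 rose by 0.25 ± 0.069 (SE, limma adjusted p = 0.0275). In both, every HA-Fbxl10 array lay above every control array. Gins1 kept its call whichever array was left out, while Gins3 lost it without any but control replicate 1 (adjusted p 0.0558 to 0.0928). Gins4 differed by -0.014 (95% confidence interval -0.15 to 0.12) and Gins2 by -0.17 (95% confidence interval -0.34 to 0.0096), neither passing the test. Cdc45, the helicase cofactor, differed by 0.19 (95% confidence interval 0.012 to 0.37), Mcm10, a factor in helicase activation, by 0.14 (95% confidence interval -0.068 to 0.35), and Mcm8, an MCM relative with a role in recombination repair, by 0.065 (95% confidence interval -0.081 to 0.21), and none of the 3 passed.

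Primase and polymerase alpha, which start each strand as 1 complex, had 1 member that fell and 3 that did not pass the test. Prim1, the catalytic primase subunit, had log2 levels of 9.96, 9.98 and 10.12 on the control arrays and 9.63, 9.65 and 9.66 on the HA-Fbxl10 arrays, a fall of 0.37 ± 0.067 (SE, limma adjusted p = 0.00370). Its HA-Fbxl10 arrays were nearly equal, and all lay below every control array. Pola1, the polymerase subunit, differed by -0.18 (95% confidence interval -0.34 to -0.029) with arrays that did not overlap, and missed the threshold (adjusted p = 0.0961). Prim2 and Pola2, the accessory subunits, differed by -0.025 (95% confidence interval -0.19 to 0.14) and -0.018 (95% confidence interval -0.18 to 0.15), and both signs turned when array medians were subtracted.

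The genes of the strand-extending polymerases held both the largest rise and 1 of the 4 falls. Pole2, an accessory subunit of polymerase epsilon, had log2 levels of 7.35, 7.18 and 7.32 on the control arrays and 7.998, 8.08 and 7.94 on the HA-Fbxl10 arrays, a rise of 0.72 ± 0.073 (SE, limma adjusted p = 0.000162), which is 1.65-fold. The gap between the groups was several times the scatter within either group. Pole, the catalytic subunit of the same enzyme, rose by 0.26 ± 0.077 (SE, limma adjusted p = 0.0359). For polymerase delta the subunits moved in opposite directions, with Pold3 higher and Pold2 lower. Pold2 had 9.39, 9.24 and 9.38 on the control arrays and 9.004, 9.01 and 8.92 on the HA-Fbxl10 arrays, a fall of 0.36 ± 0.069 (SE, limma adjusted p = 0.00519). Pold3 had 7.69, 7.35 and 7.68 on the control arrays and 7.82, 8.10 and 7.91 on the HA-Fbxl10 arrays, a rise of 0.37 ± 0.11 (SE, limma adjusted p = 0.0371), with wide scatter in both groups. Pold1, the catalytic subunit, differed by 0.025 (95% confidence interval -0.14 to 0.19). Pole lost its call when any array but control replicate 3 was left out (adjusted p 0.0654 to 0.116). Pold3 lost it without replicate 2 of either group, and also without HA-Fbxl10 replicate 3 (adjusted p 0.0860 to 0.122).

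The clamp and 4 of the 5 clamp loader subunits rose. Pcna, the sliding clamp, had log2 levels of 10.96, 10.94 and 11.05 on the control arrays and 11.33, 11.31 and 11.38 on the HA-Fbxl10 arrays, a rise of 0.36 ± 0.064 (SE, limma adjusted p = 0.00340). Its other probe set gave a difference of 0.35, and the sets gave nearly the same levels (control minima of 10.94 for both), so whether they are separate readings of the gene or share probes with a near-identical copy is uncertain. Rfc4 had 9.70, 9.44 and 9.61 on the control arrays and 10.01, 10.13 and 9.91 on the HA-Fbxl10 arrays, a rise of 0.43 ± 0.087 (SE, limma adjusted p = 0.00622). Rfc1, the large subunit, had 9.24, 9.20 and 9.27 on the control arrays and 9.61, 9.61 and 9.46 on the HA-Fbxl10 arrays, a rise of 0.32 ± 0.068 (SE, limma adjusted p = 0.00878). Rfc2 rose by 0.32 ± 0.072 (SE, limma adjusted p = 0.0121) and Rfc3 by 0.29 ± 0.065 (SE, limma adjusted p = 0.0110), and for all 5 risen genes of this step the arrays of the groups did not overlap. None of these calls ended when any 1 array was left out. Rfc5 differed by -0.14 (95% confidence interval -0.32 to 0.042) with overlapping arrays.

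The single-strand binding protein and the joining of Okazaki fragments had no member that rose. Rpa1, the large DNA-binding subunit of RPA, had log2 levels of 9.64, 9.50 and 9.48 on the control arrays and 9.30, 9.31 and 9.23 on the HA-Fbxl10 arrays, a fall of 0.26 ± 0.069 (SE, limma adjusted p = 0.0246). Rpa2 differed by -0.18 (95% confidence interval -0.34 to -0.015) with lower HA-Fbxl10 arrays throughout, but it missed the threshold (adjusted p = 0.124). Rpa3 differed by 0.17 (95% confidence interval -0.083 to 0.42), where HA-Fbxl10 replicate 3 (7.90) stood above the others, and its other probe set gave -0.020. Rpa1 lost its call without control replicate 1 or without any HA-Fbxl10 array (adjusted p 0.0517 to 0.0931), and also when array medians were subtracted. Fen1, the flap nuclease, had 8.25, 8.27 and 8.45 on the control arrays and 8.29, 8.34 and 8.23 on the HA-Fbxl10 arrays, a difference of -0.037 (95% confidence interval -0.20 to 0.13), and the ligase Lig1 differed by -0.016 (95% confidence interval -0.17 to 0.13). For both genes the groups overlapped. The sign of the Fen1 difference was not stable, as it turned when array medians were subtracted or control replicate 3 was left out.

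The genes of nucleotide supply went both ways. Rrm2, the small subunit of ribonucleotide reductase, which makes deoxyribonucleotides and is produced in S phase, had log2 levels of 10.58, 10.39 and 10.53 on the control arrays and 11.22, 11.20 and 11.22 on the HA-Fbxl10 arrays, a rise of 0.71 ± 0.070 (SE, limma adjusted p = 0.000139), which is 1.64-fold. The HA-Fbxl10 arrays were nearly equal and lay far above all control arrays. Rrm1, the large subunit of the same enzyme, had 11.34, 11.22 and 11.35 on the control arrays and 11.65, 11.70 and 11.65 on the HA-Fbxl10 arrays, a rise of 0.36 ± 0.065 (SE, limma adjusted p = 0.00367). Tk1, the salvage enzyme thymidine kinase, went the other way with 9.83, 9.88 and 9.88 on the control arrays and 9.54, 9.58 and 9.50 on the HA-Fbxl10 arrays, a fall of 0.32 ± 0.061 (SE, limma adjusted p = 0.00463). The other probe set of Tk1 gave a smaller difference, -0.13, from 8.47 ± 0.049 to 8.34 ± 0.071 (SD, n = 3 each), with arrays that did not overlap. Whether either set also reads a near-identical copy is unknown here, so the size of the fall is uncertain. Tyms, which makes thymidylate from deoxyuridylate, differed by 0.12 (95% confidence interval -0.038 to 0.28) and did not pass.

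**Figure D2:**
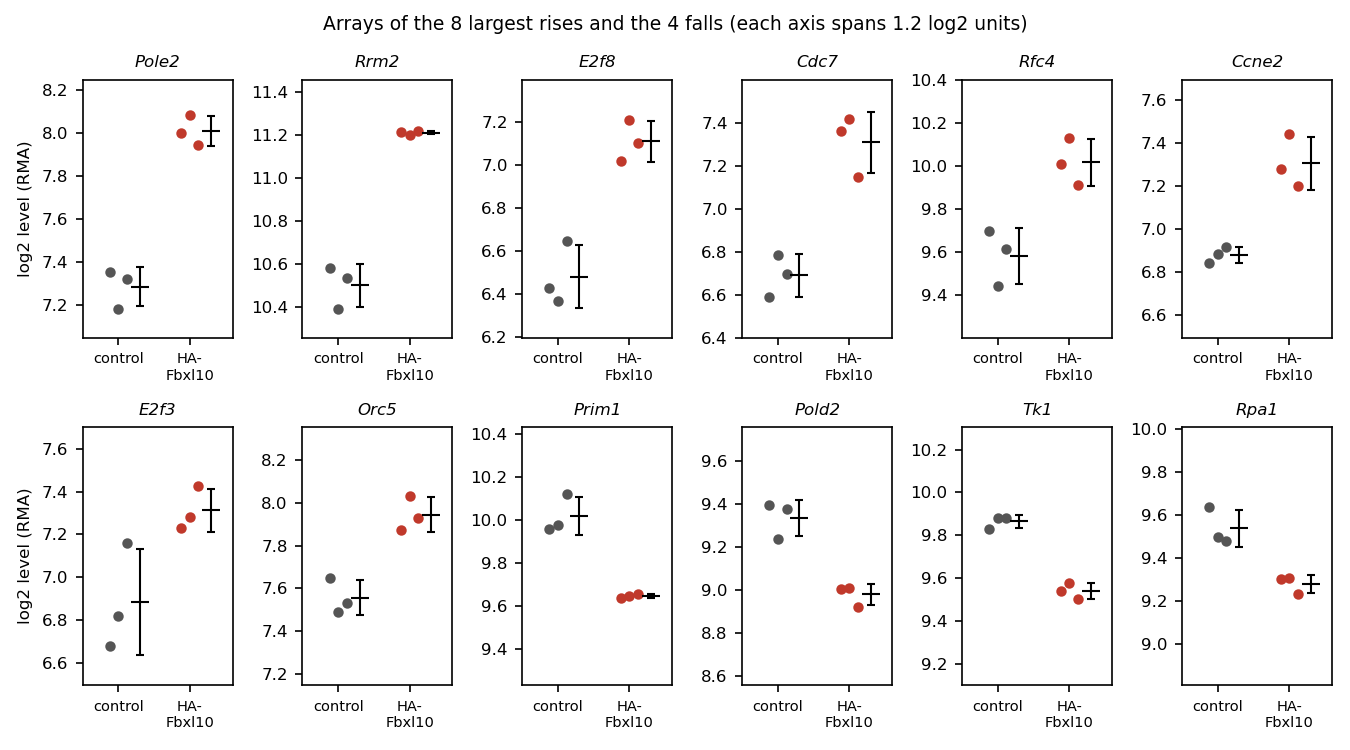
Log2 level (vertical axis, 1.2 units in every panel) of the 8 members with the largest rises and the 4 that fell on each array; points are arrays, and bars are the mean ± SD of 3 arrays. No panel has overlapping groups, which is likely for genes chosen by their calls, and the control arrays of E2f3 scatter most (SD 0.25).

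Of the S-phase regulators, 5 of 9 rose and none fell. E2f8, an atypical E2F that represses E2F targets and is itself one of them, had log2 levels of 6.43, 6.37 and 6.65 on the control arrays and 7.02, 7.21 and 7.10 on the HA-Fbxl10 arrays, a rise of 0.63 ± 0.089 (SE, limma adjusted p = 0.00100). Cdc7, the kinase that phosphorylates MCM, had 6.59, 6.79 and 6.70 on the control arrays and 7.36, 7.42 and 7.15 on the HA-Fbxl10 arrays, a rise of 0.62 ± 0.088 (SE, limma adjusted p = 0.00105). Dbf4, its activating subunit, had 8.89, 8.74 and 8.86 on the control arrays and 9.12, 9.28 and 9.09 on the HA-Fbxl10 arrays, a rise of 0.33 ± 0.076 (SE, limma adjusted p = 0.0122). Both parts of this kinase were thus higher in HA-Fbxl10 cells, with no overlap between arrays. Ccne2, a cyclin E gene, had 6.84, 6.88 and 6.92 on the control arrays and 7.28, 7.44 and 7.20 on the HA-Fbxl10 arrays, a rise of 0.43 ± 0.076 (SE, limma adjusted p = 0.00349). Its relative Ccne1 differed by 0.19 (95% confidence interval 0.046 to 0.34) and its partner Cdk2 by 0.23 (95% confidence interval 0.032 to 0.43), and for both genes the arrays did not overlap while the test was missed (adjusted p = 0.0661 and 0.102). The E2F activators were E2f3, with 6.68, 6.82 and 7.16 on the control arrays and 7.23, 7.28 and 7.43 on the HA-Fbxl10 arrays and a rise of 0.43 ± 0.12 (SE, limma adjusted p = 0.0283), and E2f1, with a difference of 0.055 (95% confidence interval -0.077 to 0.19). The E2f3 groups were separated by a narrow gap, and the call was lost when any array but control replicate 3 was left out (adjusted p 0.0510 to 0.110). Its other probe set gave 0.46. Ccna2, the cyclin of S phase and G2, differed by -0.088 (95% confidence interval -0.23 to 0.057) with overlapping arrays.

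Of the genes that restore chromatin behind the fork, 2 of 3 rose. Uhrf1, which brings the maintenance DNA methyltransferase to new DNA, had log2 levels of 9.64, 9.77 and 9.93 on the control arrays and 10.04, 10.12 and 10.06 on the HA-Fbxl10 arrays, a rise of 0.29 ± 0.082 (SE, limma adjusted p = 0.0314). Chaf1a, the large subunit of the histone chaperone CAF-1, had 8.54, 8.58 and 8.73 on the control arrays and 8.84, 8.88 and 8.98 on the HA-Fbxl10 arrays, a rise of 0.28 ± 0.074 (SE, limma adjusted p = 0.0235). Chaf1b, its partner subunit, differed by -0.055 (95% confidence interval -0.23 to 0.12). The groups did not overlap for the risen pair, with narrow gaps. Uhrf1 lost its call with any array but control replicate 3 left out (adjusted p 0.0706 to 0.110). For Chaf1a this held for all arrays but control replicate 3 and HA-Fbxl10 replicate 1 (adjusted p 0.0547 to 0.0906).

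The members were also described together on each array. After each gene's mean over all 6 arrays was subtracted, the members' medians were -0.094, -0.15 and -0.024 on control replicates 1 to 3, and 0.065, 0.15 and 0.081 on HA-Fbxl10 replicates 1 to 3. Every control array thus lay below every HA-Fbxl10 array. The medians of genes above the median level stayed between -0.023 and 0.022 on all 6 arrays. Control replicate 2 was the lowest control array for 36 of 58 members and HA-Fbxl10 replicate 2 the highest HA-Fbxl10 array for 32. Without control replicate 2 the members' median log2 fold change was 0.17 with 21 higher, and without HA-Fbxl10 replicate 2 it was 0.18 with 21 higher.

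**Figure D3:**
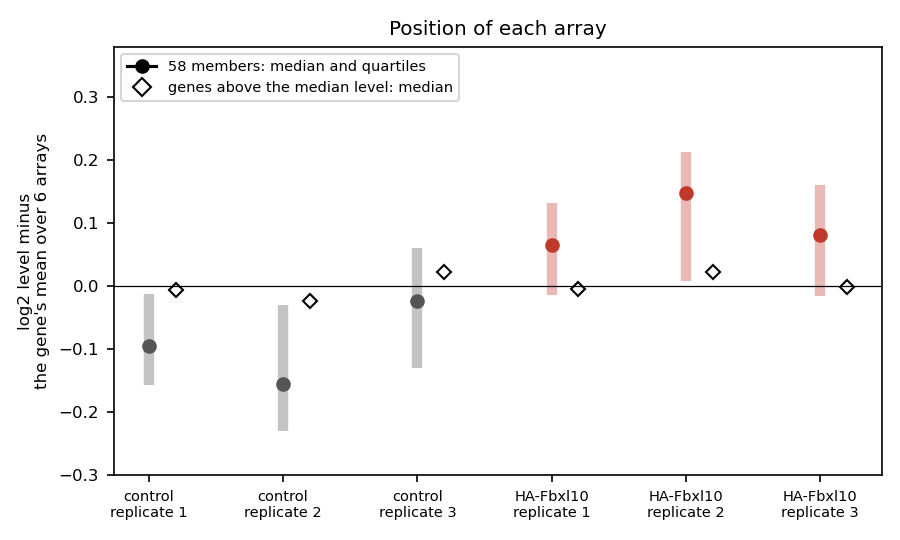
Log2 level minus the gene's mean over 6 arrays (vertical axis) on each array; filled points and bars are the median and quartiles of the 58 members, and open diamonds are the median of genes above the median level. The members' medians run from -0.15 to -0.024 on control arrays and from 0.065 to 0.15 on HA-Fbxl10 arrays.

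On some chromosomes the called members went the way that many genes around them went. Chromosome 5 held 10 members, 7 of which rose (Cdc7, Dbf4, Orc5, Pole, Rfc1, Rfc2 and Rfc3). Of 660 genes above the median level on that chromosome, 38.5% were called higher, and their median log2 fold change was 0.17. On chromosome 11 there were 4 members, of which Pold2, Rpa1 and Tk1 fell and Cdc6 rose, and 30.2% of genes above the median level on it were called lower and 4.52% higher. The fourth fall, Prim1, lay on chromosome 10, where 28.3% of genes above the median level were called lower. Both members on chromosome 13 rose too, where 43.1% of such genes were called higher and 5.22% lower. On chromosome 8, 3 of 6 members rose, where 31.25% were called higher and 8.16% lower. On chromosome 17 both members rose, where 23.2% were called higher and 10.7% lower. Members also rose on chromosomes 1, 2, 4, 12, 7 and 16, where smaller shares of such genes were called higher. On chromosome 1, 2 of 4 members rose, where 19.9% were called higher and 10.3% lower. On chromosome 2, 2 of 6 members rose, where 14.2% were called higher and 10.5% lower. On chromosome 4, 2 of 4 members rose, while 23.8% of genes above the median level were called lower and 8.19% higher. On chromosome 12 both members, Pole2 and Rrm2, rose where the median log2 fold change of genes above the median level was 0.051. On chromosome 7, 3 of 6 members rose at such a median of 0.018, and on chromosome 16, 2 of 4 rose at -0.033. The part of chromosome position in these results was not tested beyond the values that follow.

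Each member was set against its chromosomal neighbours, the 15 nearest genes above the median level on either side, fewer at chromosome ends. Of the 58 members, 43 had a log2 fold change above their neighbours' median, and of the 28 risen members 27 did, with Rfc3 (0.29, neighbours 0.34) as the exception. The neighbours' medians of the members ran only from -0.34 to 0.34. Because the 28 were picked for having risen, the count of 27 largely follows from that choice. The matching shares over all genes were not computed. Across the 58 members the log2 fold change and the neighbours' median had a Pearson r of 0.47 and a Spearman rho of 0.44, given as a description, since members on 1 chromosome can share neighbours. The neighbours' median was then subtracted from every gene above the median level on a numbered chromosome or X. Other genes were left unshifted, and the same held for the chromosome medians used further below. Both kinds of median were subtracted as fixed numbers, so the adjusted p-values after subtraction leave out the uncertainty of the medians. After subtraction of the neighbours' median, 15 of the 28 risen members stayed higher (adjusted p under 0.05). Of the 4 fallen ones 1, Pold2, stayed lower. In that fit 19 members were called higher and 3 lower, and the members' median log2 fold change was 0.17. Of all genes, the unshifted ones included, 7.64% were called higher and 8.72% lower. The shares among genes above the median level, where all members lay, were not computed for this fit. In the main fit such genes were called higher more often than all genes (19.2% against 10.5%). The 4 largest rises stayed called, with Rrm2 at 0.68, Pole2 at 0.59, E2f8 at 0.52 and Cdc7 at 0.48. Cdc6, whose neighbours on chromosome 11 had a median of -0.20, went from 0.29 to 0.50, and Rrm1 from 0.36 to 0.43.

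Other calls ended when the neighbours were subtracted. Mcm5 went from 0.28 to 0.016, Rfc1 from 0.32 to 0.049 and Rfc3 from 0.29 to -0.052, so these 3 were close to the median of the genes around them. Orc2 (0.15), Orc5 (0.17), Gins3 (0.12), Mcm3 (0.18), Mcm4 (0.23), Pole (0.11), Rfc2 (0.21), Rfc4 (0.26), E2f3 (0.28) and Dbf4 (0.21) also lost their calls. So did the falls of Prim1 (-0.22), Rpa1 (-0.18) and Tk1 (-0.13). In the other direction, 4 members became called higher, namely Mcm2 (0.24), Ccna2 (0.23), Cdk2 (0.38) and Chaf1b (0.29), and Gins4 (-0.23) and Rfc5 (-0.29) became called lower. Mcm2, Ccna2 and Chaf1b lay among neighbours with medians of -0.25, -0.32 and -0.34. With the median of the gene's whole chromosome subtracted in place of the neighbours', 3445 genes were called in all, against 4208 in the main fit. Of the members, 13 of the 28 risen and 1 of the 4 fallen ones kept their calls, and the fall kept was another. Prim1 stayed lower (-0.26, limma adjusted p = 0.0251), and Pold2 did not pass (-0.23, limma adjusted p = 0.0528). Of the risen members that kept their call against the neighbours, Gmnn (0.18, limma adjusted p = 0.135), Orc6 (0.26), Pold3 (0.35), Uhrf1 (0.22) and Chaf1a (0.21) lost it against the chromosome. Mcm3 (0.29), Mcm4 (0.38) and Rfc4 (0.47), which had lost theirs against the neighbours, kept it. Of the clamp loader genes, none was called higher relative to its neighbours, while Pcna (0.32) was called under both subtractions.

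**Figure D4:**
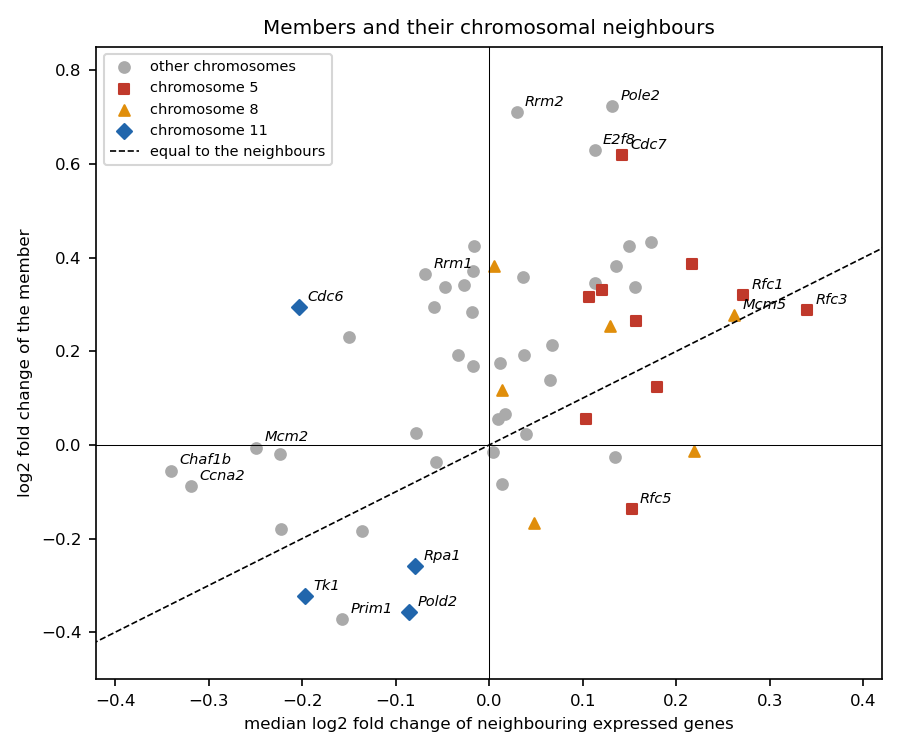
Log2 fold change of each member (vertical axis) against the median log2 fold change of its neighbouring genes above the median level (horizontal axis), with members on chromosomes 5, 8 and 11 marked and a dashed line where both are equal. Rrm2, Pole2, E2f8 and Cdc7 lie far above the line, and Rfc1, Rfc3 and Mcm5 lie near it.

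The other genes of the same processes are given by count. Of 44 further replication and S-phase genes listed, 41 were measured, 13 rose (31.7%) and 5 fell (12.2%), with a median log2 fold change of 0.13. All 41 lay above the median level, where 19.2% of genes were called higher and 17.8% lower. The share that rose was thus above that of such genes and the share that fell below it, which was not tested. The largest changes were in Pold4, the small subunit of polymerase delta, which fell by 0.73 ± 0.073 (SE, limma adjusted p = 0.000156), in Tipin, a fork protection factor, which rose by 0.61 ± 0.066 (SE, limma adjusted p = 0.000242), and in Rnaseh2c, a subunit of the ribonuclease that removes ribonucleotides from DNA, which fell by 0.60 ± 0.078 (SE, limma adjusted p = 0.000684). The other 3 that fell were Rnaseh2a, the catalytic subunit of the same ribonuclease as Rnaseh2c (-0.59), the helicase gene Recql4 (-0.35) and Pole4, an accessory subunit of polymerase epsilon (-0.25). Rnaseh2b, another subunit of that ribonuclease, went the other way and rose by 0.39 ± 0.067 (SE, limma adjusted p = 0.00288). Pold4 fell together with Pold2 of the same enzyme, while Pold3 rose. Tipin had log2 levels of 9.34, 9.24 and 9.30 on the control arrays and 9.86, 9.98 and 9.87 on the HA-Fbxl10 arrays, and Pold4 had 8.10, 7.94 and 8.17 on the control arrays and 7.32, 7.32 and 7.37 on the HA-Fbxl10 arrays, with no overlap for either gene.

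Among regulators of the G1 to S transition, 31 of 32 listed genes were measured, 14 rose (45.2%) and 3 fell (9.68%), with a median log2 fold change of 0.23; 28 of the 31 lay above the median level. E2f5, an E2F of the repressor class, had log2 levels of 7.36, 7.33 and 7.29 on the control arrays and 6.19, 6.33 and 6.03 on the HA-Fbxl10 arrays, a fall of 1.15 ± 0.082 (SE, limma adjusted p = 2.39e-05). Cdkn2b, the CDK inhibitor p15, had 8.46, 8.34 and 8.50 on the control arrays and 7.62, 7.45 and 7.48 on the HA-Fbxl10 arrays, a fall of 0.91 ± 0.074 (SE, limma adjusted p = 4.74e-05). Ccnd1, the G1 cyclin D1, had 10.20, 10.25 and 10.21 on the control arrays and 10.80, 10.85 and 10.81 on the HA-Fbxl10 arrays, a rise of 0.60 ± 0.060 (SE, limma adjusted p = 0.000160). The remaining fall was in Cdkn2a (-0.35), which encodes the CDK inhibitor p16 and the protein Arf. The CDK inhibitor genes did not move as a class. Cdkn2d (0.44) and Cdkn1b (0.39) rose, and Cdkn1c and Cdkn2c did not pass the test. Rb1 (0.33), E2f4 (0.32) and E2f7 (0.35) rose as well, while Rbl1, Rbl2, E2f2 and E2f6 did not pass. The E2F genes of this list thus did not all move with E2f5. The changes of E2f5, Cdkn2b and Ccnd1 were larger than the scatter within groups, and they stayed called with the neighbours subtracted. Of 32 mitotic genes 31 were measured, all above the median level, and 6 were higher (19.4%) and 4 lower (12.9%), with a median log2 fold change of 0.043. The share called higher was near the 19.2% of genes above the median level. The largest were Anln, a cytokinesis scaffold (0.43), Ttk, a spindle checkpoint kinase (0.39), and Kif20a, a kinesin of cytokinesis (0.38); Ttk lost its call with the neighbours subtracted (0.12, adjusted p = 0.298). The 4 that fell were Cenpe (-0.36), Pttg1 (-0.33), Cdc20 (-0.25) and Ect2 (-0.20). The difference between replication and mitotic genes was not tested.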

How the data were processed

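Expression was measured on 1-colour Affymetrix arrays, 3 per group, from 300 ng of total RNA each per the labels. The authors deposited log2 values per probe set, made with RMA per the submitters' processing notes; version, settings and genome build not given in the sources used here. RMA equalises the arrays' distributions, which hides any change shared by most genes and shrinks differences at low levels. Values ran from 1.72 to 13.9 and were used as deposited. Array medians were 4.69 to 4.79, and Pearson correlations over genes were 0.997 to 0.998 within and 0.991 to 0.992 between groups. The table gives no detection calls or scan dates, so no batch was tested, and precision is limited by having 3 arrays a group.

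Of 35556 probe sets, 21789 name 1 gene, 1621 several and 12146 none in the platform annotation used here. Symbols came from the RefSeq table of GRCm38.p6 through the Entrez identifier (21698) or an accession (3), and 88 kept the annotation's symbol. Only sets with 1 gene were used, the brightest per gene (1001 genes had several), with no filter on dim genes. That table served for names, chromosomes and gene order.

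All 19936 genes were fitted with limma 3.58.1 in R 4.3.3 (lmFit, eBayes, two-sided, Benjamini-Hochberg over all genes), group as the only term; the fit was checked on simulated data. Fold changes are HA-Fbxl10 minus control. Named members are the 30 called ones with the largest changes, the largest change of a step with no call, and the largest 3 called genes of each further list; other members are given by value or range. Members, lists and alternatives were chosen with earlier results of these data known. Promoters shown were chosen after their matches were seen.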

Additional observations from a re-analysis of the deposited data

How the results depend on the processing

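The main counts were 28 members higher and 4 lower, with 4208 genes called in all. With quantile normalisation, subtracted array medians, the dimmest 30% of genes left out, averaged probe sets, variance trends, array weights or the neighbour median removed, the number of members higher ran from 19 to 31 and of those lower from 3 to 6, and none of these was beyond 1.5 times the main count. The genes called in all moved as well in these fits, from 3262 with the neighbour median removed to 5032 with variance trends. Leaving out 1 array at a time gave 19 to 26 members higher, 3 to 4 lower, a median of 0.17 to 0.24 and 3208 to 3853 genes called. Of the 32 called members, 22 kept their call without each array and 10 lost it without at least 1. At an adjusted p of 0.01, 15 members stayed higher and 2536 genes were called. With the median of a gene's chromosome removed, 3445 genes were called in all, and 14 members were higher with a median of 0.15. Of the 32 member calls 18 were lost, 13 risen members and Prim1 kept theirs, Cdk2 became called higher, and Gins2 and Rfc5 became called lower. Of the called members 8 (Gins1, Pole2, Pcna, Rrm1, Rrm2, E2f8, Ccne2 and Cdc7) kept their call in every setting. Signs turned for 10 of the 58 members with the neighbour median removed, for 9 with the chromosome median removed and for 6 with array medians subtracted, and Rfc3 was the only called member among them. Of the members named by rule, the sign turned for Rfc3 with the neighbour median removed (-0.052), and for Fen1 with array medians subtracted (0.00171), with the chromosome median removed (0.081) and with the neighbour median removed (0.020), and its value ran from -0.074 to 0.025 (without control replicate 3) when 1 array was left out. With the replicate number as a block, 22 members were higher and 3 lower, 3397 genes were called, and 7 of the 32 called members lost their call. The main fit had no block because the labels do not say that the numbers mark a shared batch. Deviations from the group means of same-numbered arrays had correlations of 0.085, -0.28 and -0.093, and differently numbered arrays had -0.22 to 0.28. With 3 arrays a group these values cannot exclude a pairing. The causes of these changes were not tested, other than that fewer arrays were fitted when 1 was left out.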
